A study of Homo sapiens with 10 samples.

Results

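Cholesterol and fatty acid synthesis genes were followed through a neural differentiation of human embryonic stem cells, in bulk RNA sequencing of whole cultures. The set was named gene by gene and holds 27 genes. It has 18 enzymes of the sterol pathway, 4 genes of sterol sensing and handling, and 5 genes that make or desaturate fatty acids. All 27 were found by symbol among the 42335 gene symbols of the deposited table, and all 27 were among the 15779 genes with at least 1 FPKM (fragments corrected for the length of the transcript and the size of the library) in at least 2 libraries. All cells were H9, an established line of human embryonic stem cells. 5 libraries came from H9 cells with the genotype label SOX1-OT V1 PAKI, called V1PAKI here, and 5 from wild-type H9 cells, called Ctrl. Each line gave 1 library at each of 5 stages, named d0, d4, d10, d16D and d16V for days 0, 4, 10 and 16. What PAKI, D and V stand for is not explained, and nothing says how many clones stand behind V1PAKI, so each genotype is 1 line. The labels call the d0 cells hESC and all later cells NP cells derived from them. Per the labels' protocols, colonies of both lines were lifted with dispase and floated as embryoid bodies in medium lacking FGF-2, with neural medium starting on day 4 and attachment on day 7. For ventral telencephalon, cells were given 200 ng/ml Sonic hedgehog protein with 1.5 µM SAG, which activates Smoothened, beginning on day 10.

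Cells build cholesterol from acetyl-CoA through mevalonate, isoprenoid units, squalene and lanosterol, and build fatty acids from the same acetyl-CoA through malonyl-CoA. The transcription factors SREBP1 and SREBP2 switch on most genes of both routes when membrane sterol is low, and INSIG1 holds them back in the endoplasmic reticulum when sterol is plentiful. Sterols also matter to hedgehog signalling, since the hedgehog ligand carries a covalently bound cholesterol and the signal transducer Smoothened binds sterols.

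The promoters of 4 genes are shown because SREBF2 carries a full match to the sterol regulatory element, the letters TCACNCCAC bound by SREBP, and because INSIG1, STARD4 and SCD passed the test at d4. The sequences are those of RefSeq on build GRCh38.p14, from 250 bases before to 50 bases after the start of the gene, 5′ to 3′ on the gene's own strand. Capitals mark the CCAAT box, bound by NF-Y, on either strand (CCAAT or ATTGG) and the sterol regulatory element. The windows are chr22:41832855-41833154 (plus strand) for SREBF2, chr7:155297628-155297927 (plus strand) for INSIG1, chr5:111512486-111512785 (minus strand) for STARD4 and chr10:100346983-100347282 (plus strand) for SCD.
SREBF2: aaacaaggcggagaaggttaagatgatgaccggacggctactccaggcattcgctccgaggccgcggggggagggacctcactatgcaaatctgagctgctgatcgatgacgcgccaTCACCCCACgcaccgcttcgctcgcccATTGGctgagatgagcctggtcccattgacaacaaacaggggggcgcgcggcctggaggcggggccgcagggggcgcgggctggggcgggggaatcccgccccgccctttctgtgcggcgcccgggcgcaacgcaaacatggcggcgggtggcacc
INSIG1: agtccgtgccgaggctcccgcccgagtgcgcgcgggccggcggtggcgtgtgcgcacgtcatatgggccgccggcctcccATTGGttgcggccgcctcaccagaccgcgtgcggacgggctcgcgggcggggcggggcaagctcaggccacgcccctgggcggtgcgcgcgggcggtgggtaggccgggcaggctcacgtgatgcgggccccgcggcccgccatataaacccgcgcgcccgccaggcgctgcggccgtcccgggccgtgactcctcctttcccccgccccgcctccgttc
STARD4: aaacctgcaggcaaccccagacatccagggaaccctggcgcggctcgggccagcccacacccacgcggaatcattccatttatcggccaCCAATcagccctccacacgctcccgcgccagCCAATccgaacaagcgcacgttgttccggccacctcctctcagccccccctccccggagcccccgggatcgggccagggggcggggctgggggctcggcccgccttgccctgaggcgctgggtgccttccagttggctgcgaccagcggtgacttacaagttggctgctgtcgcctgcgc
SCD: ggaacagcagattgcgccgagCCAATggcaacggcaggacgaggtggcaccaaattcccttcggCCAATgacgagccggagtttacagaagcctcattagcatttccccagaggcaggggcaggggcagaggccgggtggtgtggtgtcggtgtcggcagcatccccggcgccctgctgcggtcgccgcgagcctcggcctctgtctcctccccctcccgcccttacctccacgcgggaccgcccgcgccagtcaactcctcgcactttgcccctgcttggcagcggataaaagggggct
In SREBF2 the element begins at -133 from the start and the CCAAT box lies at -106. The CCAAT boxes lie at -170 in INSIG1, at -161 and -130 in STARD4 and at -229 and -186 in SCD. By symbol, 24 members matched an entry of the promoter table, and ACAT2, FDFT1 and SQLE did not. Searched on both strands, the full element stood in 1 of the 24 members (4.17%), against 1.39% of 27305 genes in the table. Its looser form TCACNCNAC, which takes in every full match, stood in FDPS, HSD17B7, SREBF2 and FADS2, 16.7% of members against 3.13% of genes. The CCAAT box stood in 20 members (83.3%, against 39.7% of genes), the GC box GGGCGG in 23 (95.8%, against 48.3%) and the E-box CACGTG in LSS, SC5D and INSIG1 (12.5%, against 8.77%). These are matches of letters in a window and not measured binding.

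Each library summed to between 200509 and 256270 FPKM. Depth cannot be read from these values, so no counting error is given. The cultures differed in what else they held. The sum of 9 pluripotency genes was 1291 FPKM in V1PAKI and 1488 in Ctrl at d0, and at d16V it was 294.3 in V1PAKI and 260.2 in Ctrl. The sum of 9 liver and yolk sac genes lay at 3092 FPKM in the V1PAKI d16D library, against 550.0 in Ctrl d16D, with 13.0 in V1PAKI d16V and 326 in Ctrl d16V. 8 mesenchyme genes summed to 207 FPKM in V1PAKI and 814 in Ctrl at d10, and to 1131 in V1PAKI and 182 in Ctrl at d16D. 10 neural progenitor genes summed to 409.7 FPKM in V1PAKI d16D and 846 in Ctrl d16D, so the V1PAKI d16D library stands apart, and the counts of members in the day 16 comparisons are also given without it. In bulk RNA, fewer cells of a type and less RNA per cell cannot be told apart. Stage changes were tested with limma over all 10 libraries, with stage and line as terms and p-values adjusted over all 15779 genes (threshold 0.05). Each line has 1 library per stage, and no repeat cultures can be identified from the sample descriptions. The p-values rest on how far the lines depart from a shared course over the stages, and not on the spread between repeated cultures. V1PAKI against Ctrl at a single stage is given without a test.

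**Figure D1:**
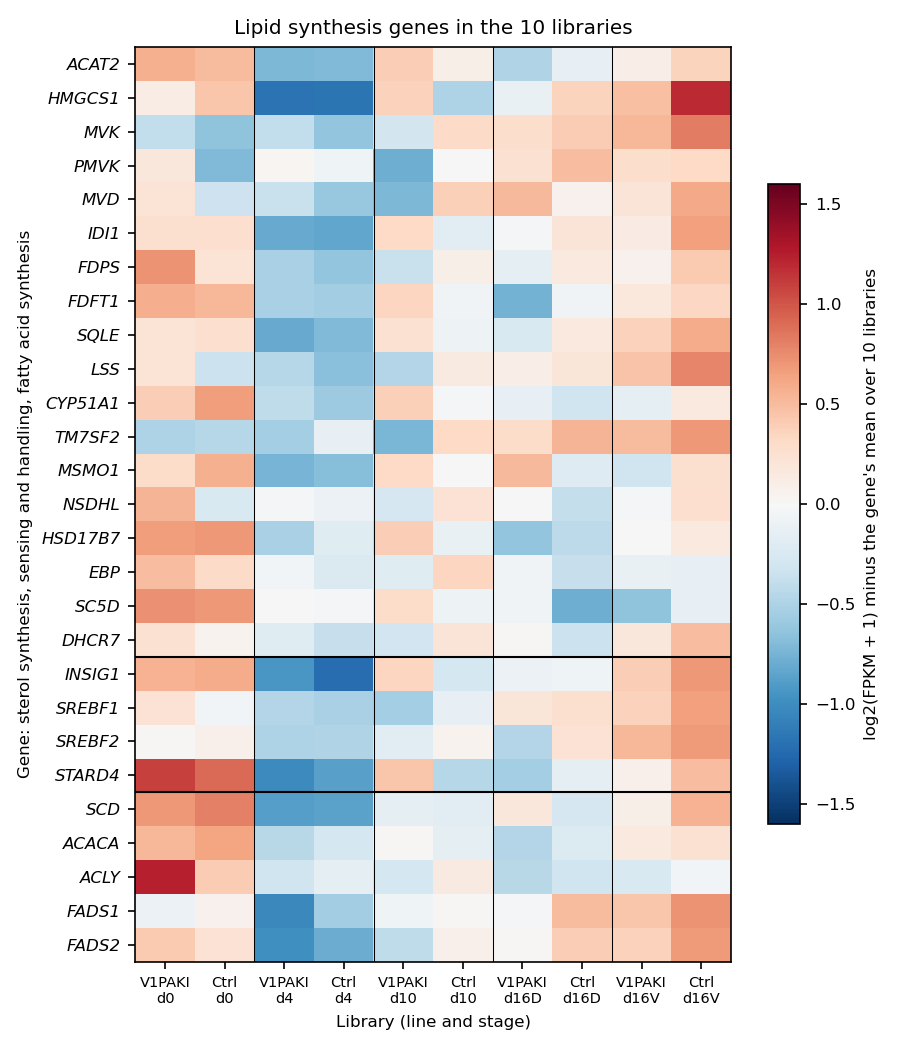
Heat map of the 27 genes (down the page, in the order sterol synthesis, sterol sensing and handling, fatty acid synthesis) over the 10 libraries (V1PAKI left of Ctrl at each stage). Colour is log2(FPKM + 1) minus the mean of the gene over the 10 libraries, red above and blue below it; 19 of the 27 genes have their lowest stage mean at d4.

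The genes shared a dip at d4. The stage mean of log2(FPKM + 1) was lowest at d4 for 19 of 27 members, against 21.6% of all genes tested, and highest at d0 for 14 members (25.2% of all genes) or at d16V for 12 (25.5%). Within a line, d4 was the lowest of the 5 stages for 14 members in V1PAKI (22.7% of all genes) and for 19 in Ctrl (13.4%). The 27 genes together summed to 1133, 494.5, 756, 739.9 and 861 FPKM in V1PAKI over d0, d4, d10, d16D and d16V, and to 1046, 501, 760.4, 757 and 1101 FPKM in Ctrl. Both lines had their lowest sum at d4, where they were nearly equal, and the widest gap between the lines was at d16V.

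From d0 to d4, 4 members fell and none rose. They were STARD4, a carrier of cholesterol between membranes, INSIG1, the sterol-dependent brake on SREBP, SCD, which puts the first double bond into fatty acids, and ACAT2, the cytosolic enzyme that joins acetyl-CoA units ahead of mevalonate. Of all genes tested 0.818% were called in this comparison, 0.311% as lower and 0.507% as higher. The fitted change was below 0 in 24 of 27 members and above 0 in 3, where 50.5% of all genes were above 0, and the median change of the members was -1.01 on the log2(FPKM + 1) scale against 0.00 for all genes. In 23 members both d4 libraries lay below both d0 libraries, which 28.0% of all genes did. The other 4 were MVK, PMVK, TM7SF2 and NSDHL, whose lines moved in opposite directions. At an unadjusted p under 0.05, 19 members were lower and none was higher, against 5.59% and 6.26% of all genes.

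Among the sensing and handling genes, STARD4 stood at 18.8, 3.62, 11.7, 5.43 and 8.88 FPKM in V1PAKI over d0, d4, d10, d16D and d16V, and at 16.4, 4.12, 5.78, 7.48 and 12.2 FPKM in Ctrl. INSIG1 stood at 23.4, 7.76, 20.2, 14.7 and 20.8 FPKM in V1PAKI and at 24.2, 6.15, 12.7, 14.8 and 26.0 FPKM in Ctrl. Both genes were lowest at d4 in each line, and the d4 libraries did not overlap with those of any other stage for either gene. STARD4 fell at d4 by 1.94 (SE 0.33, limma adjusted p = 0.0491), with a d4 over d0 ratio of FPKM of 0.233 in V1PAKI and 0.293 in Ctrl. INSIG1 fell by 1.65 (SE 0.25, adjusted p = 0.0382), with ratios of 0.359 in V1PAKI and 0.284 in Ctrl. The genes of the SREBP factors themselves moved less. SREBF2, which encodes SREBP2, stood at 45.8, 31.7, 40.2, 32.4 and 65.8 FPKM in V1PAKI and at 47.7, 32.1, 47.1, 53.2 and 72.7 FPKM in Ctrl. SREBF1, which encodes SREBP1, stood at 10.2, 5.90, 5.55, 9.95 and 11.3 FPKM in V1PAKI and at 8.25, 5.69, 7.70, 10.4 and 14.0 FPKM in Ctrl. Both had a d4 change that did not pass, -0.54 (SE 0.22, adjusted p = 0.391) for SREBF2 and -0.59 (SE 0.22, adjusted p = 0.359) for SREBF1, and in both the d4 libraries lay below the d0 libraries.

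Among the fatty acid genes, SCD had the highest level of the 27 in every library, at 276, 91.5, 153, 193 and 181 FPKM in V1PAKI and 298, 93.5, 149.6, 141 and 249 FPKM in Ctrl. It fell at d4 by 1.62 (SE 0.23, adjusted p = 0.0371), and its d4 libraries lay below all other libraries. FADS2, the delta-6 desaturase of polyunsaturated fatty acids, stood at 42.6, 15.5, 23.5, 31.9 and 40.9 FPKM in V1PAKI and at 37.1, 17.9, 33.6, 41.8 and 51.2 FPKM in Ctrl, and its change of -1.21 (SE 0.21) missed the threshold at an adjusted p of 0.0575. FADS1, the delta-5 desaturase, stood at 16.5, 8.17, 16.9, 17.5 and 24.4 FPKM in V1PAKI and at 18.6, 11.8, 18.0, 25.6 and 29.9 FPKM in Ctrl. Both desaturases were lowest at d4 in each line. ACACA, the acetyl-CoA carboxylase that makes malonyl-CoA, stood at 18.9, 9.12, 13.0, 8.95 and 14.4 FPKM in V1PAKI and at 20.4, 10.4, 11.4, 10.8 and 15.3 FPKM in Ctrl. ACLY, which frees acetyl-CoA from citrate, stood at 176, 58.8, 60.3, 53.8 and 61.9 FPKM in V1PAKI and at 97.8, 65.8, 81.4, 58.7 and 71.0 FPKM in Ctrl. For these last genes the d16D libraries were as low as those of d4 or lower in V1PAKI, and ACLY at d0 was higher in V1PAKI than in any other library.

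**Figure D2:**
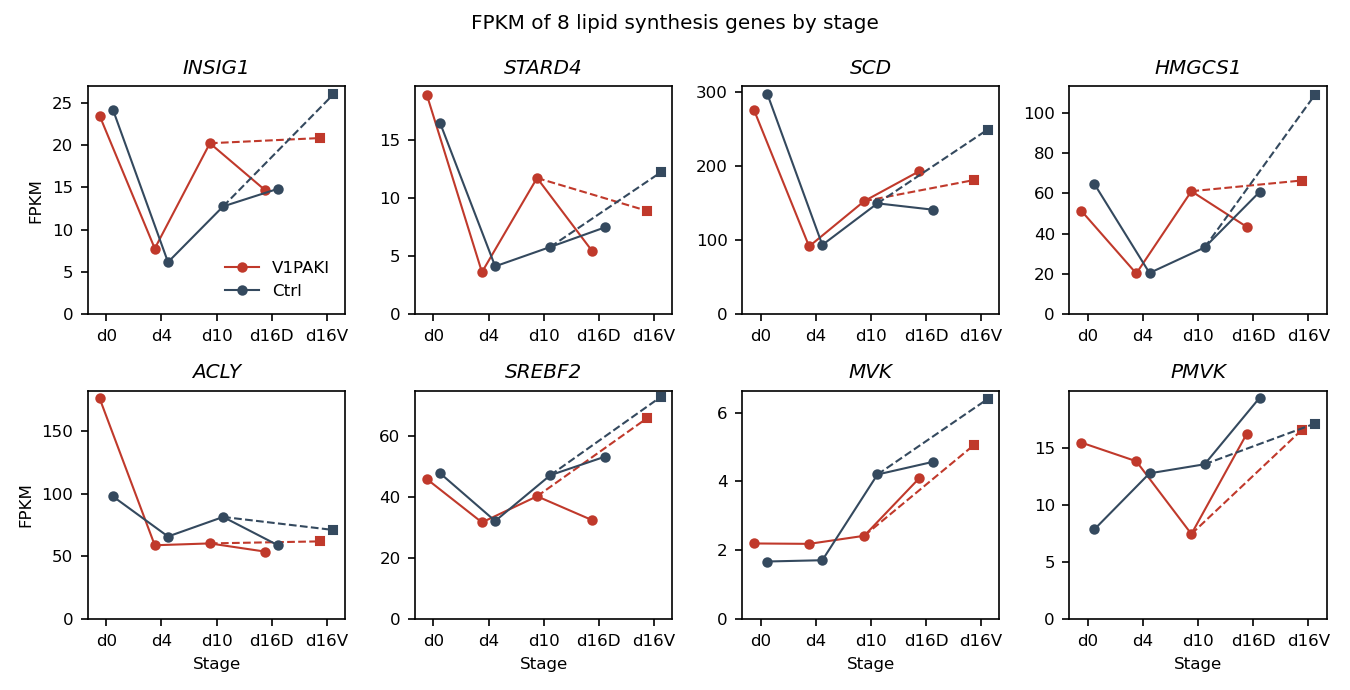
FPKM (vertical axes, from 0, each gene on its own scale) of 8 of the genes over the 5 stages (horizontal axes) in V1PAKI (red) and Ctrl (dark blue), 1 library per point; solid lines join d0 to d16D, and dashed lines join d10 to d16V (squares). INSIG1, STARD4, SCD and HMGCS1 are lowest at d4 in both lines, while MVK and PMVK are not.

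In the sterol pathway, the first steps split. ACAT2 stood at 67.3, 27.004, 59.8, 32.0 and 48.8 FPKM in V1PAKI and at 64.7, 27.2, 48.4, 41.1 and 58.1 FPKM in Ctrl, and fell at d4 by 1.25 (SE 0.21, adjusted p = 0.0491). HMGCS1, the HMG-CoA synthase, stood at 51.4, 20.2, 61.0, 43.4 and 66.4 FPKM in V1PAKI and at 64.6, 20.5, 33.1, 60.8 and 109 FPKM in Ctrl. Its d4 change of -1.46 (SE 0.35) was larger than that of ACAT2 but its spread was wider, and it did not pass (adjusted p = 0.135). The kinases of mevalonate did not share the dip. MVK, the first of them, stood at 2.20, 2.19, 2.42, 4.10 and 5.07 FPKM in V1PAKI and at 1.67, 1.71, 4.20, 4.57 and 6.40 FPKM in Ctrl. PMVK, the next, stood at 15.4, 13.8, 7.44, 16.2 and 16.5 FPKM in V1PAKI and at 7.85, 12.7, 13.5, 19.4 and 17.1 FPKM in Ctrl. Their d4 changes were 0.01 (SE 0.26) for MVK and 0.24 (SE 0.35) for PMVK, and neither passed. MVD, the decarboxylase that follows, stood at 10.6, 6.77, 5.08, 13.3 and 10.5 FPKM in V1PAKI and at 6.94, 5.54, 12.05, 9.49 and 14.2 FPKM in Ctrl, lowest at d10 in V1PAKI and at d4 in Ctrl.

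The enzymes from isoprenoid units to lanosterol were at their lowest or close to it at d4. IDI1, the isomerase of the isoprenoid units, stood at 21.5, 9.80, 22.5, 17.6 and 19.6 FPKM in V1PAKI and at 21.6, 9.58, 15.7, 20.6 and 28.7 FPKM in Ctrl. FDPS, which makes farnesyl diphosphate, stood at 62.6, 26.1, 29.2, 34.0 and 39.6 FPKM in V1PAKI and at 44.0, 24.0, 40.4, 42.4 and 50.7 FPKM in Ctrl. Both were lowest at d4 in each line. FDFT1, the squalene synthase, stood at 33.9, 15.2, 28.5, 12.8 and 25.3 FPKM in V1PAKI and at 32.7, 14.9, 21.3, 21.3 and 28.4 FPKM in Ctrl, so that in V1PAKI its d16D library was lower still. SQLE, the squalene epoxidase, stood at 38.5, 18.3, 39.0, 27.7 and 42.7 FPKM in V1PAKI and at 39.8, 19.7, 31.1, 36.8 and 50.1 FPKM in Ctrl. LSS, the lanosterol synthase, stood at 19.7, 11.98, 11.9, 18.2 and 23.5 FPKM in V1PAKI and at 13.0, 10.2, 18.7, 19.4 and 29.6 FPKM in Ctrl. The d4 changes of these genes ran from -0.50 (SE 0.29) for LSS to -1.10 (SE 0.26) for FDFT1, with IDI1 at -1.08, FDPS at -1.04 and SQLE at -1.01, and none passed.

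After lanosterol the steps were less alike. CYP51A1, the lanosterol demethylase, stood at 30.1, 16.9, 29.9, 20.7 and 20.4 FPKM in V1PAKI and at 36.7, 14.8, 22.2, 17.9 and 25.3 FPKM in Ctrl. MSMO1, the C4 methyl oxidase, stood at 41.0, 19.5, 41.9, 48.5 and 26.5 FPKM in V1PAKI and at 49.8, 20.5, 33.2, 28.9 and 40.1 FPKM in Ctrl. Both were lowest at d4 in each line, with d4 changes of -1.02 (SE 0.23) for CYP51A1 and -1.14 (SE 0.31) for MSMO1 that did not pass. HSD17B7, the ketosteroid reductase of the same complex, stood at 7.02, 2.53, 5.63, 2.27 and 4.05 FPKM in V1PAKI and at 7.17, 3.41, 3.66, 2.78 and 4.63 FPKM in Ctrl. NSDHL, the decarboxylating dehydrogenase between them, stood at 18.7, 12.2, 10.2, 12.5 and 12.3 FPKM in V1PAKI and at 10.4, 11.7, 14.9, 9.35 and 15.3 FPKM in Ctrl. The NSDHL values of the lines did not share a course, while those of HSD17B7 were highest at d0 and lowest at d16D in each. TM7SF2, a sterol C14 reductase, stood at 7.33, 6.99, 6.01, 13.4 and 15.5 FPKM in V1PAKI and at 7.50, 9.67, 13.6, 16.1 and 17.9 FPKM in Ctrl, with both day 16 arms above every earlier stage in V1PAKI and in Ctrl. EBP, the sterol isomerase, stood at 34.2, 23.4, 21.0, 23.1 and 22.0 FPKM in V1PAKI and at 29.8, 20.2, 30.9, 18.3 and 21.9 FPKM in Ctrl. SC5D, the C5 desaturase, stood at 14.9, 8.53, 10.7, 8.18 and 5.14 FPKM in V1PAKI and at 14.4, 8.34, 8.06, 4.58 and 7.76 FPKM in Ctrl, and was highest at d0 in each line. DHCR7, which reduces 7-dehydrocholesterol to cholesterol, stood at 28.999, 21.0, 19.5, 24.6 and 27.6 FPKM in V1PAKI and at 25.3, 18.6, 28.2, 19.0 and 34.5 FPKM in Ctrl. Its highest-over-lowest ratio over the 10 libraries, 1.86, was the smallest of the 27, and that of HMGCS1, 5.38, the largest.

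The 4 calls at d4 lay close to the threshold. None of them stood without the V1PAKI d0, Ctrl d0, V1PAKI d4, Ctrl d4, V1PAKI d16V or Ctrl d16V library, each left out alone. The fitted changes moved little over the 18 alternative settings, from -2.16 to -1.74 for STARD4, -1.77 to -1.53 for INSIG1, -1.67 to -1.57 for SCD and -1.32 to -1.19 for ACAT2. STARD4 overlaps the antisense gene STARD4-AS1 on the other strand. How strand was treated is not stated in the labels, and without it reads of the pair cannot be told apart. STARD4-AS1 had a d4 change of -0.56 (SE 0.53, adjusted p = 0.744). ACAT2 likewise overlaps TCP1, at -0.19 (SE 0.18, adjusted p = 0.754), and SOD2, at 0.13 (SE 0.22, adjusted p = 0.873), on the other strand. FADS2 overlaps FEN1 on the same strand. FEN1 reached 51.6 FPKM and had a d4 change of 0.30 (SE 0.27, adjusted p = 0.734). In all, 12 of the 27 members overlap another gene that reaches 1 FPKM, and FADS1 and FADS2 overlap each other. The 9 pseudogenes named after a member reached at most 0.653 FPKM. The sum of 9 pluripotency genes was 1629 FPKM in V1PAKI and 1608 in Ctrl at d4, against 1291 in V1PAKI and 1488 in Ctrl at d0, and that of 8 genes of cycling cells was 460.2 in V1PAKI and 449 in Ctrl, against 533 in V1PAKI and 473 in Ctrl. The part of either in the d4 values was not tested.

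Among the genes around the synthesis routes, those of fatty acid elongation and activation were mostly lower at d4 too. The medians of the other lists lay near 0, but their genes were mixed. Fitted changes ran from -0.68 to 1.65 in LXR and sterol export and from -0.89 to 0.15 in SREBP processing. Of 20 measured genes of elongation and activation none was called, against 0.818% of all genes. In 15 of them the fitted change was below 0, where 50.5% of all genes were above 0, and the median was -0.46. In this list 8 genes were lower at an unadjusted p under 0.05 and none was higher, against 5.59% and 6.26% of all genes. In 13 both d4 libraries lay below both d0 libraries, which 28.0% of all genes did. ACSL4, an acyl-CoA synthetase that activates long polyunsaturated fatty acids, stood at 11.1 FPKM in V1PAKI and 10.6 FPKM in Ctrl at d4, against 34.8 FPKM in V1PAKI and 33.1 FPKM in Ctrl at d0, a change of -1.56 (SE 0.34) that did not pass (adjusted p = 0.106). ACSL3, a related synthetase, had a change of -1.30 (SE 0.27) that did not pass either (adjusted p = 0.0848). None of 7 measured genes for the processing of SREBP, such as its escort SCAP, was called, and their median change was 0.10. No call was made among 6 genes of LXR and sterol export (median 0.13), 8 of sterol transport and esterification (median 0.03) and 10 of the isoprenoid branches to ubiquinone, dolichol and prenylated proteins (median -0.03). In fatty acid oxidation 1 of 11 measured genes was called, as higher, against 0.507% of all genes. CPT1A, which carries long fatty acids into mitochondria, stood at 5.18 FPKM in V1PAKI and 4.40 FPKM in Ctrl at d4, against 0.810 FPKM in V1PAKI and 0.630 FPKM in Ctrl at d0. It rose by 1.75 (SE 0.27, adjusted p = 0.0384), and all libraries of other stages stood below both d4 libraries.

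Between d4 and d10 no member was called, against 1.44% of all genes tested (0.919% as higher and 0.52% as lower). 26 of 27 had a fitted change above 0, as 48.9% of all genes did, and the median was 0.49 against -0.01 for all genes. The exception was PMVK, at -0.36. Taken by line, 19 members were higher at d10 in V1PAKI (52.7% of all genes) and 26 in Ctrl (47.0%). The lines went in different directions for 9 members (44.5% of all genes). PMVK, MVD, LSS, TM7SF2, NSDHL, EBP, DHCR7 and SREBF1 fell in V1PAKI alone, and SC5D fell in Ctrl alone. Those that fell in V1PAKI all had a GC content above the members' median of 50.2%. In 17 members both d10 libraries lay above both d4 libraries, which held for 23.6% of all genes. At an unadjusted p under 0.05, 12 members were higher and none was lower, against 7.81% and 7.38% of all genes. The smallest adjusted p were 0.0740 for ACAT2, at 0.96 (SE 0.21), and 0.0802 for INSIG1, at 1.11 (SE 0.25). In the pathway around them CPT1A fell back by 1.67 (SE 0.27, adjusted p = 0.0360). SCD5, a second stearoyl-CoA desaturase that is abundant in brain, rose by 2.45 (SE 0.26, adjusted p = 0.0139), to 7.00 FPKM in V1PAKI and 5.45 FPKM in Ctrl at d10, against 0.169 FPKM in V1PAKI and 0.489 FPKM in Ctrl at d4. 1 member was called with values as TPM, 2 with no line term, 4 after removal of the trend with GC content and length, and 1 without Ctrl d10.

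From d10 to the d16D arm the members went no common way. No member was called (0.932% of all genes), 13 had a fitted change above 0 (52.8% of all genes), and the median was -0.07 against 0.03 for all genes. The lines went in different directions for 13 members, near the 49.8% of all genes that did so. Without V1PAKI d16D, 13 members were above 0 (55.2% of all genes), with a median of -0.04. From d10 to the d16V arm no member was called either (0.811% of all genes, 0.52% as higher), 20 had a fitted change above 0, as 53.4% of all genes did, and the median was 0.38 against 0.04 for all genes. In 13 members both d16V libraries lay above both d10 libraries (28.3% of all genes). At an unadjusted p under 0.05, 8 were higher and none was lower, against 10.9% and 9.02% of all genes. Leaving out V1PAKI d16D gave 20 members above 0 (53.4% of all genes), with a median of 0.38.

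The day 16 arms were set against each other to see whether the lipid genes differ with hedgehog treatment. The sample labels do not say which arm received it; of 7 genes of hedgehog response and ventral forebrain 6 rose in d16V, among them PTCH1, the hedgehog receptor and target, at 73.2 FPKM in V1PAKI and 65.3 in Ctrl at d16V, against 8.04 in V1PAKI and 5.56 in Ctrl at d16D. The d16V level of NKX2-1, a ventral forebrain factor, was 44.8 FPKM in V1PAKI and 67.5 in Ctrl, against 0.0826 in V1PAKI and 0.0145 in Ctrl at d16D. NKX2-2 (4.56), NKX6-2 (2.88), GLI1 (2.44) and HHIP (2.097), ventral factors and hedgehog targets, also rose. The dorsal genes EMX2 (-2.86), DMRTA2 (-2.59) and WNT7B (-2.43) fell.

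Beside that change the lipid genes differed by small amounts, mostly upward, and none passed the test. 0 of 27 members were called by limma in either direction, where 0.361% of all genes were (57 genes, 0.196% as higher), and the smallest adjusted p was 0.511, for SREBF2. Without adjustment, 7 members were higher at a p under 0.05 and none was lower, against 2.55% and 2.79% of all genes: ACAT2, FDFT1, SQLE, HSD17B7, INSIG1, SREBF2 and ACACA. The fitted change was above 0 in 25 of 27 members (52.4% of all genes), and the median was 0.33 against 0.01 for all genes. MSMO1 (-0.19) and PMVK (-0.07) were the exceptions. Taken by line, 20 members were higher in d16V in V1PAKI (52.8% of all genes) with a median of 0.21, and 26 in Ctrl (51.2% of all genes) with a median of 0.46. In both lines together 19 members were higher (25.4% of all genes) and none was lower (21.2%), and in 14 both d16V libraries lay above both d16D libraries (17.2%).

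SREBF2 had the largest fitted difference, 0.72 (SE 0.22), from 65.8 FPKM in V1PAKI and 72.7 FPKM in Ctrl at d16V, against 32.4 FPKM in V1PAKI and 53.2 FPKM in Ctrl at d16D. INSIG1 was at 0.62 (SE 0.25), from 20.8 FPKM in V1PAKI and 26.0 FPKM in Ctrl at d16V, against 14.7 FPKM in V1PAKI and 14.8 FPKM in Ctrl at d16D. STARD4 was at 0.63 (SE 0.33), with nearly the same d16V over d16D ratio in the lines, 1.54 in V1PAKI and 1.55 in Ctrl. In all of these genes the arms did not overlap. All 4 genes of sterol sensing and handling were higher in d16V in each line, as were 4 of the 5 fatty acid genes. The exception among the fatty acid genes was SCD, whose d16V over d16D ratio was 0.939 in V1PAKI and 1.76 in Ctrl. Of the 18 sterol enzymes, 11 were higher in both lines. HMGCS1 had ratios of 1.52 in V1PAKI and 1.78 in Ctrl, and FDFT1 had 1.91 in V1PAKI and 1.32 in Ctrl. The others moved in opposite directions, and among them MSMO1 had 0.556 in V1PAKI and 1.37 in Ctrl, SC5D 0.669 in V1PAKI and 1.57 in Ctrl, and MVD 0.800 in V1PAKI and 1.45 in Ctrl.

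**Figure D3:**
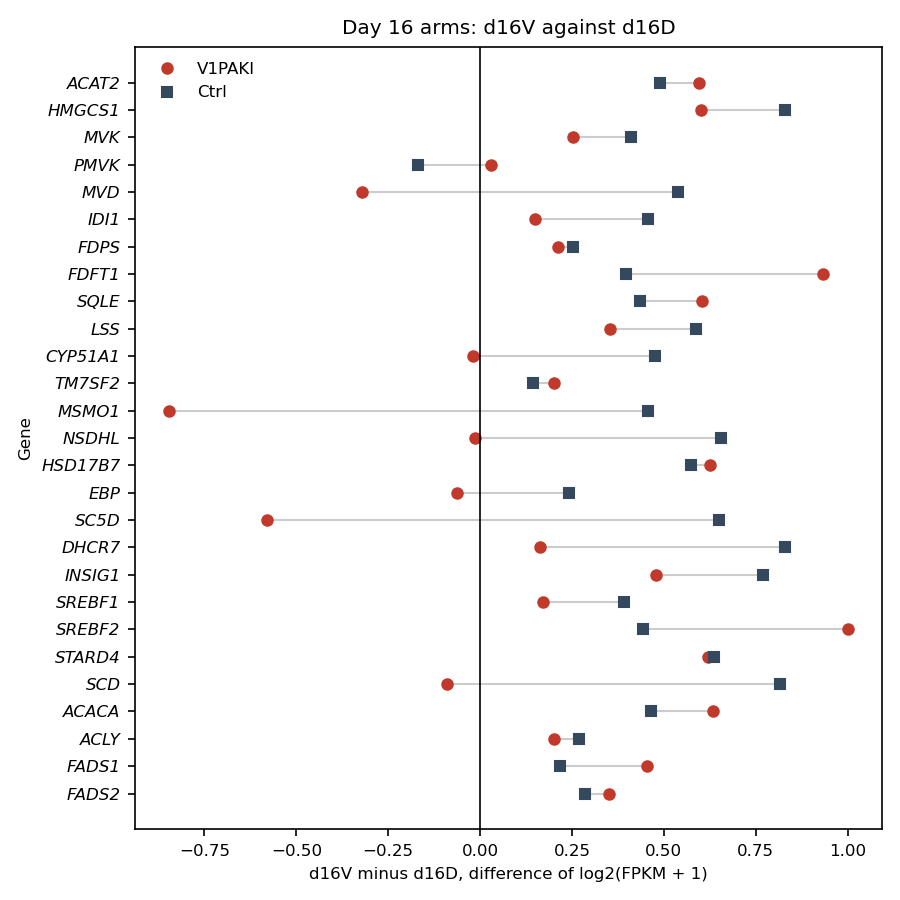
Difference of log2(FPKM + 1) between d16V and d16D (horizontal axis) for each of the 27 genes (down the page) in V1PAKI (red circles) and Ctrl (dark blue squares), 1 library of each arm per point, with a grey line joining the lines. 26 of 27 Ctrl points and 20 of 27 V1PAKI points lie above 0, and SC5D, MSMO1, MVD and SCD have the widest gaps between the lines.

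The arms also differed in other cells, most of all in V1PAKI. All 8 tested liver and yolk sac genes were lower in d16V than in d16D in each line, with sums over 9 genes of 13.0 FPKM in V1PAKI and 326 in Ctrl at d16V, against 3092 in V1PAKI and 550.0 in Ctrl at d16D. The mesenchyme sum was 13.1 FPKM in V1PAKI and 303 in Ctrl at d16V, against 1131 in V1PAKI and 182 in Ctrl at d16D, and the sum of 8 trophoblast and amnion genes 8.85 in V1PAKI and 61.4 in Ctrl, against 235 in V1PAKI and 30.0 in Ctrl. AFP, the alpha-fetoprotein of fetal liver and yolk sac, was at 4.88 FPKM in V1PAKI and 132 in Ctrl at d16V, against 1242 in V1PAKI and 226 in Ctrl at d16D, and COL3A1, a mesenchymal collagen, at 3.44 in V1PAKI and 161 in Ctrl, against 700.6 in V1PAKI and 102 in Ctrl. Their part in the arm difference of the lipid genes was not tested. With V1PAKI d16D left out no member was called, 26 were above 0 (43.9% of all genes) and the median was 0.33, but 1 member in place of 7 was higher at an unadjusted p under 0.05 (1.93% of all genes). With V1PAKI d16V left out the median was 0.55, and with the GC and length trend removed 23 members in V1PAKI and 26 in Ctrl were above 0. None of the neighbouring pathway lists had a called gene in the arm comparison, and their medians ran from -0.40 for LXR targets and sterol export to 0.04 for sterol transport and esterification and for elongation and activation.

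Set against d0, the mean of both day 16 arms differed in 9 members, 2 of which rose and 7 of which fell. Since 32.4% of all genes tested were called in this comparison, 17.4% as higher and 15.1% as lower, this share of the members lies near the background. The fitted change was above 0 in 10 members (54.0% of all genes), and the median was -0.18 against 0.07 for all genes. Without adjustment, 3 members were higher at a p under 0.05 and 10 were lower, against 24.2% and 20.3% of all genes. Leaving out V1PAKI d16D gave 12 members above 0 (54.8% of all genes), with a median of -0.28. MVK rose by 1.03 (SE 0.22, adjusted p = 0.0120) and TM7SF2 by 0.98 (SE 0.23, adjusted p = 0.0161). SC5D fell by 1.11 (SE 0.25, adjusted p = 0.0142), ACLY by 1.09 (SE 0.26, adjusted p = 0.0172), STARD4 by 1.02, HSD17B7 by 0.90, ACACA by 0.65, CYP51A1 by 0.64 and ACAT2 by 0.58. The count was 1 without Ctrl d0, 2 without V1PAKI d16V, 3 without V1PAKI d0, 5 without V1PAKI d4 and 5 without Ctrl d4, and it was 7 without V1PAKI d16D. TPM, which moved the median of all genes by 0.21 in this comparison, ended the calls of ACAT2, CYP51A1, ACACA and STARD4. TM7SF2 overlaps VPS51 on the same strand and MVK overlaps MMAB on the other.

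Other lipid genes were called over the same span, in which 32.4% of all genes tested were called, 17.4% as higher and 15.1% as lower. SCD5 rose by 3.01 (SE 0.23, adjusted p = 0.000348) and ELOVL2, an elongase of polyunsaturated fatty acids, by 2.18 (SE 0.32, adjusted p = 0.00300). SOAT1, which esterifies cholesterol for storage, rose by 1.40 (SE 0.24, adjusted p = 0.00558), ABCA1, the exporter that LXR switches on, by 1.02, ACADVL, the very long chain acyl-CoA dehydrogenase, by 0.99, OSBPL5 by 0.75 and PPARA, a nuclear receptor for fatty acids, by 0.70. ABCA1 stood alone in its list. Of 6 tested genes of LXR and sterol export, 1 had a fitted change above 0 and 5 were below it. The median of that list was -0.15, and 54.0% of all genes were above 0. Of 20 genes of elongation and activation 8 fell (15.1% of all genes) and 2 rose (17.4%). Those that fell were HSD17B12 by 1.46, ACSL3 by 1.10, ACSL4 by 1.09, ELOVL7 by 1.07, ME1 by 0.96, HACD2 by 0.87, ELOVL6 by 0.86 and ELOVL5 by 0.82. NUS1, a subunit of the dolichol-making enzyme, fell by 1.24, PDSS2 and PDSS1, which make the ubiquinone tail, by 0.98 and 0.81, ACAA2 of fatty acid oxidation by 1.26 and GRAMD1A, a sterol transporter, by 1.11. SCD5 stood at 0.823, 0.169, 7.00, 8.68 and 15.7 FPKM in V1PAKI and at 0.929, 0.489, 5.45, 15.1 and 19.3 FPKM in Ctrl. SCD was higher than SCD5 in every library.

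Between the lines, no member passed the test over the 5 stages. 0 of 27 were called by limma, against 0.019% of all genes (3 genes). At an unadjusted p under 0.05, 2 members were lower in V1PAKI and none was higher, against 1.45% and 1.02% of all genes. They were TM7SF2, at -0.39 (SE 0.17), and FADS1, at -0.31 (SE 0.12), and neither stood without V1PAKI d16D. The fitted difference was above 0 in 7 of 27 members (44.4% of all genes), and the median was -0.05 against -0.02 for all genes. SOX1-OT, the noncoding gene of the genotype label, was at 0.212 FPKM in V1PAKI and 1.87 FPKM in Ctrl at d16D and at 1.22 FPKM in V1PAKI and 3.51 FPKM in Ctrl at d16V, and at most 0.0513 FPKM in either line at the earlier stages.

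Stage by stage the members were split almost evenly between the lines up to d10, while at d16V nearly all were lower in V1PAKI. V1PAKI was higher than Ctrl in 15 members and lower in 12 at d0, and higher in 14 and lower in 13 at d4. At d10 it was higher in 13 and lower in 14, at d16D higher in 8 and lower in 19, and at d16V higher in 1 and lower in 26. Among all genes that reached 1 FPKM in 1 of the libraries compared, V1PAKI was higher in 62.2% at d0, 40.3% at d4, 47.8% at d10, 41.1% at d16D and 36.6% at d16V. The d16V difference had a median of -0.29 over the members and -0.07 over all genes. It was lowest for HMGCS1, at 66.4 FPKM in V1PAKI and 109 FPKM in Ctrl (-0.71), and EBP, at 22.0 FPKM in V1PAKI and 21.9 FPKM in Ctrl, was the member that was not lower. With the GC and length trend removed the median was -0.16 and 4 members were higher. With 1 library per line these d16V values have no replicate check. The liver and yolk sac, mesenchyme and trophoblast sums also lay lower in V1PAKI d16V than in Ctrl d16V, at 13.0, 13.1 and 8.85 FPKM in V1PAKI and 326, 303 and 61.4 FPKM in Ctrl, and their part in the line difference was not tested.

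At d10 the members divided by base composition. The 13 members whose longest annotated transcript had a GC content above the median of the members, 50.2%, were all lower in V1PAKI, with a median of -0.51. Of the other 14 members 13 were higher in V1PAKI, with a median of 0.39, and the exception was FADS1 (-0.09). MVD, at 63.7% GC, had 5.08 FPKM in V1PAKI and 12.05 FPKM in Ctrl (-1.10), and TM7SF2, at 64.2% GC, had 6.01 FPKM in V1PAKI and 13.6 FPKM in Ctrl (-1.06). At the other end STARD4, at 34.2% GC, had 11.7 FPKM in V1PAKI and 5.78 FPKM in Ctrl (0.91), and HMGCS1, at 40.2% GC, had 61.0 FPKM in V1PAKI and 33.1 FPKM in Ctrl (0.86). All genes split the same way at the members' median, at -0.40 above it and 0.29 below it. The correlation of the d10 difference with GC content was -0.91 across the 27 members and -0.64 across all genes, given as a description, since genes of 1 library pair share that pair. When the trend with GC and length over all genes was removed, the gap between the groups of members shrank to -0.36, against -0.90 as deposited. At d0 the split ran the other way, with 11 of the 13 members of high GC higher in V1PAKI (median 0.28) and 4 of the other 14 (median -0.04), close to the medians of all genes above and below that GC content, 0.25 and -0.01. There PMVK, at 15.4 FPKM in V1PAKI and 7.85 FPKM in Ctrl, had the highest difference (0.89). The d10 libraries also differed in other cells, with trophoblast and amnion sums of 156 FPKM in V1PAKI and 506 in Ctrl beside the mesenchyme sums given above, and their part was not tested. At d16V, where the correlation with GC content was 0.46 across the members and -0.05 across all genes, both groups of members were lower in V1PAKI, with medians of -0.29 above the GC median and -0.30 at or below it.

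**Figure D4:**
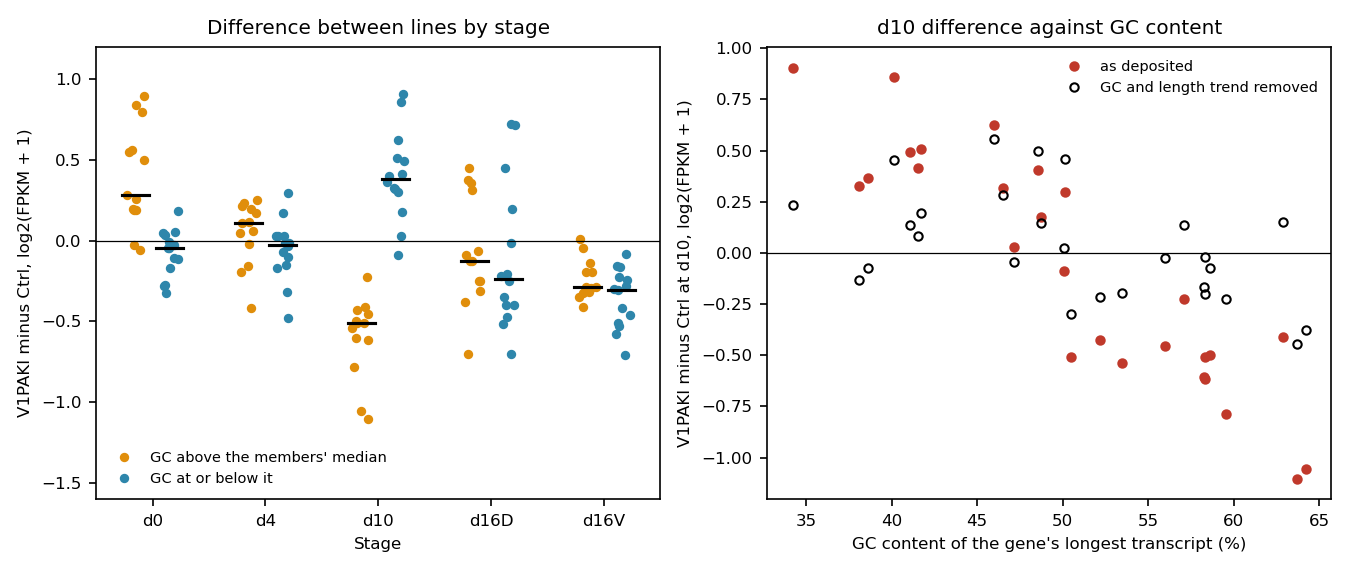
Left, difference of log2(FPKM + 1) between V1PAKI and Ctrl (vertical axis) at each stage (horizontal axis) for the 27 genes, split at their median GC content of 50.2% (orange above, blue at or below; black bars are medians). Right, the d10 difference against the GC content of the longest transcript, as deposited (red) and after removal of the GC and length trend over all genes (open circles); the slope is steep as deposited (r = -0.91) and shallower without the trend (r = -0.50).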

How the data were processed

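Bulk RNA sequencing covered 10 libraries, 1 for each of 2 H9 lines at 5 stages. The authors deposited FPKM values for 42335 gene symbols. Trizol RNA went into TruSeq libraries, per the labels' protocols. The tools named are cutadapt 1.18, HISAT2 2.1.0 and Cufflinks with build GRCh38, per the submitters' processing notes; neither the annotation nor the strand setting is given in the sources used here. Each column bore the title of 1 sample.

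The analysis used log2(FPKM + 1), a scale that understates changes of low genes. The 15779 genes that reached 1 FPKM in 2 or more libraries entered limma 3.58.1 (lmFit and eBayes with trend) under R 4.3.3, with stage and line as terms and 7.77 degrees of freedom after moderation. Tests were two-sided, with Benjamini-Hochberg adjusted p-values over all genes tested in each of 7 comparisons and a threshold of 0.05. The script was tested on simulated data. GC content and length came from the longest GENCODE 29 transcript, for 15490 genes tested (98.2%); all 27 members had a value. Lines were compared at single stages without a test. Promoter sequences were taken from RefSeq (GRCh38.p14).

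Named were all 27 members, the pathway genes called in any comparison, the markers called between the arms, SOX1-OT, and AFP and COL3A1 of the marker lists that differ between the lines. The members, the gene lists and the tests were chosen with earlier results of these data known. Some genes of the lists are not reported here. The 18 alternatives changed the pseudocount (0.1), the filter (none, or 5 FPKM), the scale (TPM, median of ratios), the line term, the GC and length trend, the day 16 arms (averaged) or left out 1 library.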

Additional observations from a re-analysis of the deposited data

Results flagged for a closer look

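SC5D, the sterol C5 desaturase, went in opposite directions between the day 16 arms of the lines. In V1PAKI it stood at 5.14 FPKM in d16V, against 8.18 FPKM in d16D, a difference of -0.58 on the log2(FPKM + 1) scale. In Ctrl it stood at 7.76 FPKM in d16V, against 4.58 FPKM in d16D, a difference of 0.65. The V1PAKI difference minus the Ctrl difference was -1.23. It is shown because both changes reached 0.5 in opposite directions, which 2.55% of all genes tested did, and it was the 1 member to do so. The difference between the lines was not tested, since each line has 1 library per arm. The V1PAKI d16D library, which holds the higher SC5D value, also held the most liver and yolk sac RNA (3092 FPKM over 9 genes), and the part of that in the value was not tested.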

How the results depend on the processing

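The 4 calls at d4 became 2 with a pseudocount of 0.1, 0 with no filter, 2 with a filter at 5 FPKM and 10 with the GC and length trend removed. The members called between d10 and d4 were 1 with TPM, 2 with no line term and 4 with the trend removed. For day 16 against d0 they were 3 with no filter and 5 with the arms averaged. In the arm comparison, the later stage steps from d10 and the line comparison, 0 members were called with the reported settings and with all alternatives run. No called change reversed its sign.

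The median change of the members between d10 and d4 stood at 0.61 for a pseudocount of 0.1 and at 0.73 under TPM, which moved the median of all genes by 0.13. For d16D against d10 it was 9.82e-05 with TPM, -0.0765 with median-of-ratios scaling and -0.0103 with the trend removed. With 1 library left out in turn, the median lay between 0.27 and 0.55 for d16V against d16D, -1.01 and -0.79 for d4 against d0, 0.34 and 0.57 for d10 against d4, -0.0652 and -0.0277 for d16D against d10, and 0.22 and 0.57 for d16V against d10. The called members then lay between 0 and 9 for d4 against d0, 0 and 1 for d10 against d4, and 1 and 13 for day 16 against d0. A stage left with 1 library is assumed to vary like the others.

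Counts over all genes moved more. For d16V against d16D, 57 genes became 7 with a pseudocount of 0.1, 2 with a filter at 5 FPKM and 18 with TPM, and 5 to 101 without 1 library. For d4 against d0, 129 became 11 with no filter, 59 with a filter at 5 FPKM, 79 with TPM, 237 with no line term and 219 without the trend, and 0 to 192 without 1 library. For d10 against d4, 227 became 3 with no filter, 408 with no line term, 636 without the trend and 489 with the arms averaged, and 0 to 447 without 1 library. For d16D against d10, 147 became 91 with a pseudocount of 0.1, 34 with no filter, 82 with a filter at 5 FPKM, 244 with no line term and 330 without the trend, and 29 to 384 without 1 library. For d16V against d10, 128 became 64 with no filter and 277 with no line term, and 16 to 681 without 1 library. For day 16 against d0, 5114 became 3132 with a filter at 5 FPKM, where fewer genes were tested, and 1255 to 6576 without 1 library. For V1PAKI against Ctrl, 3 became 0 with no filter, with a filter at 5 FPKM and with the arms averaged, and 0 to 3 without 1 library. Averaging the arms gave no value for comparisons that separate them. The causes were not tested.

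The stage comparisons were paired by line through the line term, and the counts with no line term are those above. The sequencing depth behind the values is unknown.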
